A study of Homo sapiens with 15 samples.

Results

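The genes described here encode the enzymes of polyamine metabolism and the proteins that control the rate-limiting enzyme of the pathway. They were taken from the LNCaP expression table by symbol, which gave rows for all 10 genes of the set among the 17272 genes of the table. All 10 also passed the filter on low values (a mean of at least 0.5 CPM over all libraries, where CPM are read counts scaled by library size), as did 17046 genes in all. LNCaP cells are an established line of human prostate cancer that responds to androgens. R1881 acts on them as a synthetic androgen and enzalutamide as an antiandrogen, which blocks this action. Polyadenylated RNA was sequenced from 10 libraries of cells given 1 nM R1881 with the solvent DMSO and from 5 libraries of cells given 1 nM R1881 and 2 µM enzalutamide. All cells had first been kept for 2 days in medium with charcoal-stripped serum, which is poor in steroid hormones, and all were collected 22 h after treatment. Cells without R1881 were not analysed here, so each difference is between androgen alone and androgen with its antagonist, in a single cell line. The methods call the libraries biological replicates, but give the numbers of the treatments the other way round. The labels were followed.

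Putrescine, spermidine and spermine are small cationic amines that bind nucleic acids and are needed for cell growth. ODC1 makes putrescine from ornithine, AMD1 makes the aminopropyl donor from S-adenosylmethionine, SRM adds the first aminopropyl group to give spermidine, and SMS adds the next to give spermine. Antizymes (OAZ1, OAZ2) bind ODC1 and send it to the proteasome, while the antizyme inhibitor AZIN1, a relative of ODC1 without its activity, takes antizyme away from it. On the catabolic side SAT1 acetylates spermidine and spermine, PAOX oxidizes the acetylated forms, and SMOX oxidizes spermine directly. The prostate is known for its high content of polyamines, and ODC1 for its response to androgens in this tissue.

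Per library, 15830745 to 25416052 reads had been counted on genes. As a check of the treatment, 4 androgen targets (KLK2, KLK3, TMPRSS2 and FKBP5) were all lower with enzalutamide, with differences of -4.99 to -3.55 on the log2(CPM + 0.5) scale. The 6 luminal prostate markers given here were present, of which KLK2, KLK3, KRT8 and KRT18 were lower and FOLH1 and HOXB13 higher. Of 10 markers of other cell types only VWF, COL1A1 and KRT14 had a row (the first pair higher, KRT14 lower), and they summed to 8.10 to 12.02 CPM and 10.3 to 15.9 CPM. All 14 proliferation markers examined were lower with enzalutamide (median log2 fold change -0.89), where 32.7% of all genes tested were lower and 29.8% higher. Their summed levels were 1541 to 1870 CPM with R1881 and 849 to 942 CPM with R1881 + enzalutamide. The part of these markers in the differences below was not tested. In bulk RNA, fewer cells of a kind and less RNA per cell cannot be told apart. R1881 replicates 5 and 6 and R1881 + enzalutamide replicate 2 stood apart from their groups, in that the deviation of a gene from its group mean rose with its GC content (rho over genes of 0.58, 0.74 and 0.72, Spearman). R1881 replicates 7, 9 and 10 stood apart the other way, with rho of -0.57, -0.55 and -0.63. Fold changes of the 10 genes of the set are given with and without the first 3 and all 6 of these libraries. Length-scaled levels, ratios and the lists of other genes were not examined without them. The threshold was a rho of 0.5 in size. R1881 + enzalutamide replicates 1 and 4, with rho of -0.483 and -0.498, lay just inside it and were kept. Without all 6 libraries the treatments were thus not balanced for this trend.

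With enzalutamide, all 4 synthetic enzymes were lower, all 3 catabolic enzymes were lower, and none of the 3 regulators of ODC1 passed as lower. SMS, ODC1 and SAT1 decreased most, to 0.235, 0.248 and 0.277 of their mean level with R1881. SRM and AMD1 decreased to 0.563 and 0.623, and the weakly expressed PAOX and SMOX to 0.732 and 0.729. Of the regulators, OAZ2 increased to 1.13 times its level with R1881 and AZIN1 to 1.07 times, while OAZ1, at 0.948 times, did not pass the test. By limma with Benjamini-Hochberg adjustment over all 17046 genes (threshold 0.05), 7 of the 10 genes were thus lower, where 32.7% of all genes tested were, and 2 were higher, where 29.8% were. In either direction 62.5% of all genes tested passed. The median log2 fold change was -0.54 over the 10 genes and -0.01 over all genes. A decrease of at least 2-fold was found for 3 of the 10 genes and for 4.19% of all genes. For 6 of the 10 all libraries with enzalutamide were below all those without it, as for 20.1% of all genes tested, and for 1, OAZ2, they were all above, as for 17.1%. The counts of 7 and 2 were the same without the 3 libraries of positive GC trend and without all 6 that stood apart. In 6 of 29 alternatives, 5 of which left out a single library, the count of higher genes fell to 1, because AZIN1 no longer passed.

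**Figure D1:**
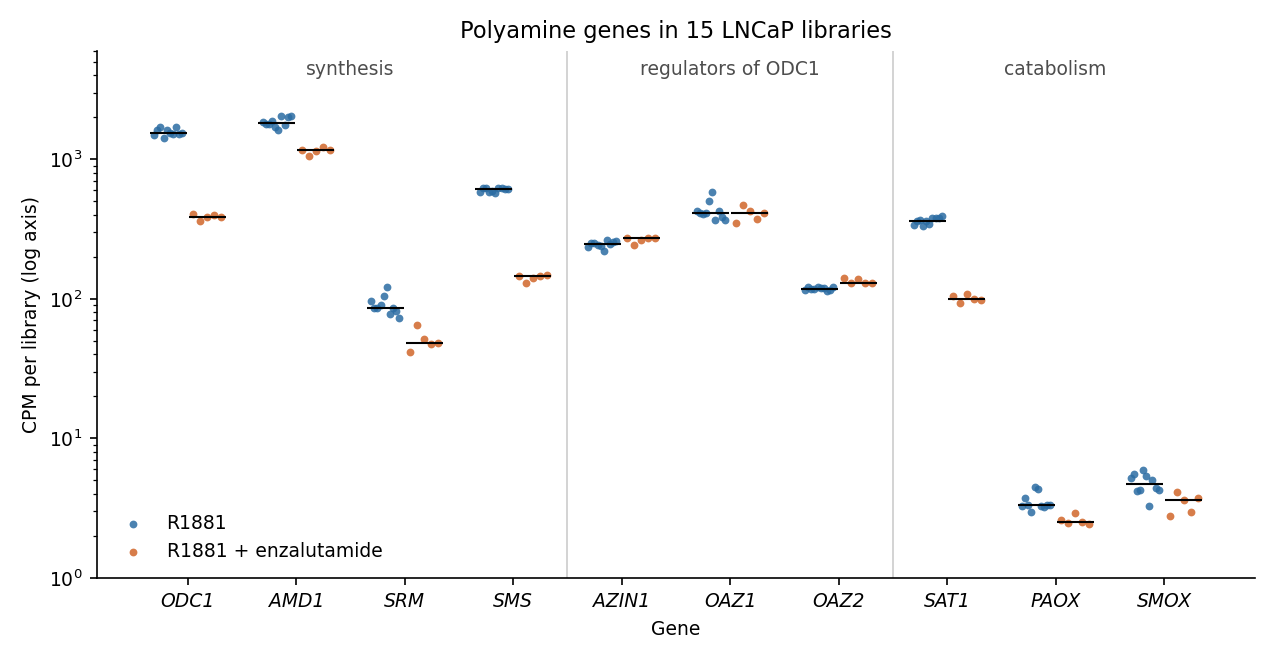
Level of each gene in CPM (vertical log axis) in each of the 15 libraries, grouped along the horizontal axis by role in the pathway. Points are libraries (10 R1881, 5 R1881 + enzalutamide) and black lines are medians. The groups are far apart for ODC1, SMS and SAT1 and overlap for AZIN1, OAZ1 and SMOX.

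The bases before the transcription starts of ODC1, AMD1, SMS and SAT1 are shown because these genes had the 3 largest decreases (ODC1, SMS, SAT1) and the most reads (AMD1) of the set. Each line gives the 250 bases before a RefSeq start (GRCh38.p14), 5′ to 3′ on the strand of the gene, with the start after the last base. Capitals mark the core promoter element TATAA and, as part of the cAMP response element, TGACG. Both were searched on both strands, and the capitals CGTCA in AMD1 are the latter read on the other strand. RefSeq windows were found for 7 of the 10 genes, and not for AZIN1, PAOX and SMOX.
ODC1, chr2:10448328-10448577, minus strand: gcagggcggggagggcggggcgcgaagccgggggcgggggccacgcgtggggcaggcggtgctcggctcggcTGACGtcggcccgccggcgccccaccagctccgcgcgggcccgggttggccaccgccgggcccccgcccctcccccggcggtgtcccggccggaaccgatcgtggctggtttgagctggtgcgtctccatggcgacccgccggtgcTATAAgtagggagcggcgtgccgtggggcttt
AMD1, chr6:110874535-110874784, plus strand: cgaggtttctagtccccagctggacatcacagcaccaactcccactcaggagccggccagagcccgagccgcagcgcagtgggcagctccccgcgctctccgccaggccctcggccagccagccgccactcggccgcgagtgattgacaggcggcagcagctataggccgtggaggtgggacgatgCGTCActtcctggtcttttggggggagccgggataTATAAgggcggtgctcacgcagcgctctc
SMS, chrX:21940459-21940708, plus strand: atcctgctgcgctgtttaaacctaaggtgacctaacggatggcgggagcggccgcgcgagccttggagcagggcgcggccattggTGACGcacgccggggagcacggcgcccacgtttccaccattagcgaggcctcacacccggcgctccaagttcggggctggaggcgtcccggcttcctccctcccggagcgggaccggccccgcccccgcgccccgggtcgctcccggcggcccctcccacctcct
SAT1, chrX:23782923-23783172, plus strand: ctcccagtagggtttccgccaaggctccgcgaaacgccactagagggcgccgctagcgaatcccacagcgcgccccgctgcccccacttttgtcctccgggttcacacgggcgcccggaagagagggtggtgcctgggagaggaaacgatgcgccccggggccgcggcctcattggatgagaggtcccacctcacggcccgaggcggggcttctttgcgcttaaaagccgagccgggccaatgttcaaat

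In the windows shown, TATAA began 32 bases before the start in ODC1 and 29 bases before it in AMD1, and was not found in SMS and SAT1. It was present in 18.9% of all 35116 windows of this length and in 11.1% of the 14536 windows of genes in the table. TGACG was found in the windows shown for ODC1, AMD1 and SMS and not in that of SAT1. It was present in 21.2% of all windows and in 27.7% of those of genes in the table. The hexamer AGAACA, a single arm of the palindromic androgen response element, was in none of the 7 genes' windows, in 12.4% of all windows and in 7.98% of those of genes in the table. The E-box CACGTG, to which MYC and other factors of its class bind, was searched in the same way and was in 6.34% of all windows and 8.22% of those of genes in the table. It occurred in the window of SRM and, in ODC1, in the window before a downstream RefSeq start. Another ODC1 match, in chr2:10447992-10448017, lies past that start and outside the bases searched, so these shares do not apply to it. Both ODC1 matches lie in the first intron of the canonical transcript. These stretches are shown because ODC1 and SRM are known for their response to MYC, with the E-box in capitals (GRCh38.p14, minus strand).
ODC1, chr2:10448026-10448051: gggccccgggCACGTGtgcggcgcgc
ODC1, chr2:10447992-10448017: cctgcggagaCACGTGgtcgccgagc
SRM, chr1:11060202-11060227: ggccgggcccCACGTGgcccctggag
A match describes the letters of a window and is not evidence of binding in these cells.

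ODC1 (chr2:10439968-10448327, minus strand, GRCh38, 12 exons in the canonical transcript of GENCODE v44) ranged from 1431 to 1695 CPM with R1881, with a median of 1543 CPM. With R1881 + enzalutamide the 5 libraries held 409, 364, 387, 401 and 385 CPM. The groups did not overlap, and all 5 lay far below the lowest R1881 library. The means were 1570 ± 85.7 CPM (SD, n = 10) and 389 ± 17.1 CPM (SD, n = 5), a 4.03-fold decrease. In the limma model this was a log2 difference of -2.01 (SE 0.039, adjusted p = 2.67e-20), and 1.06% of all genes tested had a lower value. ODC1 was also among the genes with most reads, with a median of 32730 reads in R1881 libraries and 8779 in R1881 + enzalutamide libraries, so counting error is small here.

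AMD1 (chr6:110874770-110898879, plus strand, 9 exons), the S-adenosylmethionine decarboxylase, ranged from 1622 to 2045 CPM with R1881, with a median of 1818 CPM. With R1881 + enzalutamide the libraries held 1170, 1049, 1154, 1224 and 1160 CPM, all below the lowest R1881 library. The fitted log2 difference came to -0.68 (SE 0.051, limma adjusted p = 2.43e-10), a 1.61-fold decrease of the mean. Processed pseudogenes of AMD1 share sequence with it, and 2 of them had rows of their own. The median of AMD1P2 was 34.9 CPM in R1881 libraries and 22.8 CPM with the antagonist, and AMD1P3 of 4.33 CPM and 2.75 CPM. The sources used here do not say how reads that match both were counted, but the levels of these copies were small beside that of AMD1.

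The aminopropyltransferases SRM and SMS catalyze successive steps, and both were lower with enzalutamide. SRM (chr1:11054584-11060020, minus strand, 8 exons) ranged from 72.7 to 122 CPM with R1881, with a median of 86.3 CPM. With R1881 + enzalutamide its libraries held 41.6, 65.4, 51.8, 47.2 and 48.5 CPM, all below the R1881 libraries. On the log2 scale the difference was -0.82 (SE 0.10, limma adjusted p = 4.62e-07), a 1.78-fold decrease of the mean. The highest library of each group, R1881 replicate 6 and R1881 + enzalutamide replicate 2, was also the library with the strongest GC trend. SRM stayed at a log2 fold change of -0.83 without the 3 libraries of positive GC trend, at -0.91 without all 6 that stood apart and at -0.80 with the GC trend removed from each library, all of which were chosen after seeing the data.

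SMS (chrX:21940709-21994837, plus strand, 11 exons) was the gene of the set with the largest log2 fold change in size. Its R1881 libraries lay close together, from 575 to 627 CPM around a median of 613 CPM. The R1881 + enzalutamide libraries held 146, 130, 142, 146 and 148 CPM, far below that range. In the limma model this was a log2 difference of -2.08 (SE 0.033, adjusted p = 1.02e-21), a 4.25-fold decrease of the mean, and 0.921% of all genes tested had a lower value.

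SAT1 (chrX:23783173-23786210, plus strand, 6 exons), the acetyltransferase that starts polyamine breakdown and export, fell with the synthetic enzymes. It ranged from 332 to 395 CPM with R1881, with a median of 363 CPM. With R1881 + enzalutamide its libraries held 104, 93.3, 108, 99.6 and 98.0 CPM, again with no overlap. This was -1.84 on the log2 scale (95% interval -1.93 to -1.76, SE 0.043, limma adjusted p = 4.53e-19), a 3.61-fold decrease of the mean. SAT1 shares 90 exonic bases with another protein-coding annotation on its strand that has no row in the table. SMS and SAT1 lie 1.79 Mb apart on chromosome X. In the interval between them 3 genes with a unique name were tested, chosen by position after the values of SMS and SAT1 had been seen. PRDX4 and ACOT9 were lower, with log2 fold changes of -0.65 and -0.64, and DDX53 was higher with 0.30. Of all genes tested, 32.7% were lower and 29.8% higher.

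PAOX and SMOX, the oxidases, were expressed far below the other genes. PAOX (chr10:133379261-133391694, plus strand, 7 exons) ranged from 2.96 to 4.47 CPM with R1881, with a median of 3.32 CPM, and its R1881 + enzalutamide libraries held 2.61, 2.46, 2.91, 2.51 and 2.43 CPM. These values rest on 53 to 97 reads per library. The groups did not overlap, but the highest R1881 + enzalutamide library and the lowest R1881 library were close. The fitted log2 difference came to -0.38 (SE 0.090, limma adjusted p = 0.00110). PAOX shares 1373 exonic bases with another protein-coding annotation on its strand that has no row in the table, so reads of either may be counted in its values.

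SMOX (chr20:4120980-4187747, plus strand, 7 exons) ranged from 3.29 to 5.91 CPM with R1881, with a median of 4.72 CPM. The R1881 + enzalutamide libraries held 2.79, 4.14, 3.64, 2.96 and 3.73 CPM and overlapped with this range. On the log2 scale the difference was -0.40 (SE 0.11, limma adjusted p = 0.00427), from 55 to 119 reads per library. Against the R1881 libraries numbered 51 to 55 in the labels alone, SMOX did not pass, with a log2 fold change of -0.27 and an adjusted p of 0.0577 from limma.

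**Figure D2:**
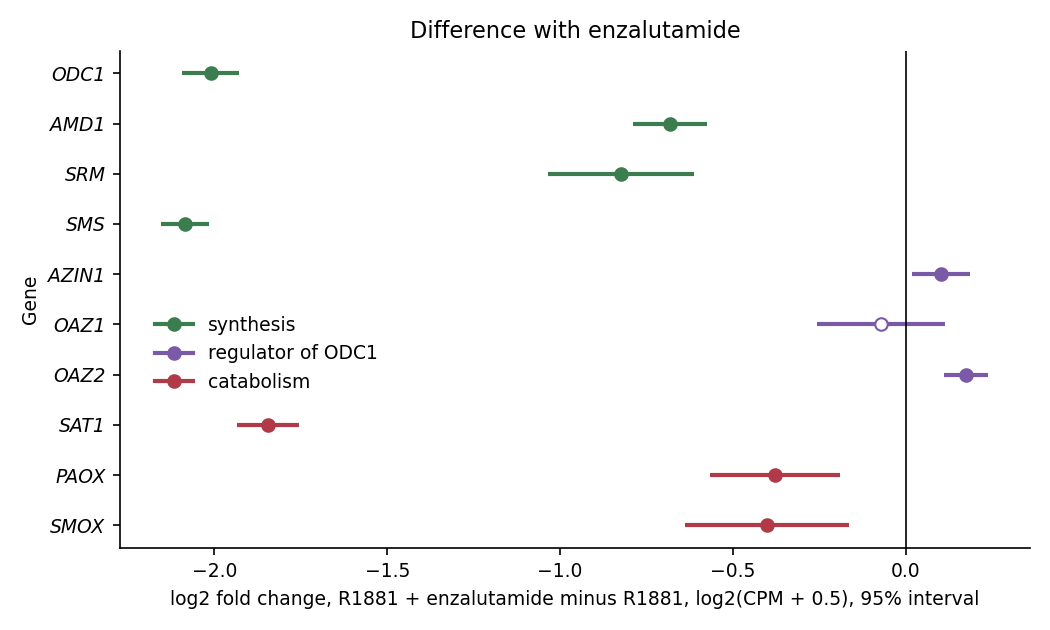
Log2 fold change of each gene (horizontal axis, R1881 + enzalutamide minus R1881 on the log2(CPM + 0.5) scale) with its 95% interval from limma, coloured by role. Filled points passed an adjusted p of 0.05 and the open point, OAZ1, did not. ODC1, SMS and SAT1 lie near -2.01, -2.08 and -1.84 and the regulators lie near 0.

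The regulators of ODC1 stayed near their level with R1881. OAZ1 (chr19:2269509-2273490, plus strand, 6 exons), the most abundant antizyme mRNA of the set, ranged from 368 to 580 CPM with R1881, with a median of 413 CPM. Its R1881 + enzalutamide libraries held 347, 474, 426, 376 and 414 CPM, and both groups overlapped widely. The log2 fold change was -0.07 (95% interval -0.26 to 0.11, limma adjusted p = 0.496), so a change of the size seen for the synthetic enzymes lies outside the interval while a small change in either direction lies within it. Its sign turned under other settings, to 0.02 with each library scaled to the same total and to 0.04 against the R1881 libraries 51 to 55 alone, and it passed the threshold under none of the alternatives run. OAZ1 shares 220 exonic bases with another protein-coding annotation on its strand and 236 with JSRP1 on the other strand. Neither of these has a row in the table.

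OAZ2 (chr15:64687573-64703281, minus strand, 6 exons), the other antizyme, increased by a small step that exceeded the spread. Its R1881 libraries lay between 114 and 122 CPM, with a median of 118 CPM, and the R1881 + enzalutamide libraries held 140, 130, 139, 129 and 130 CPM. All 5 lay above the highest R1881 library. In the limma model this was a log2 difference of 0.17 (SE 0.031, adjusted p = 4.53e-05), and it lay between 0.16 and 0.19 when single libraries were omitted. It was 0.27 with each library scaled to the same total, which also moved the median of all genes from -0.01 to 0.07. OAZ2 shares 554 exonic bases with a noncoding gene on the other strand, and the sources used here do not say whether counting used the strand.

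AZIN1 (chr8:102826111-102893864, minus strand, 12 exons) ranged from 221 to 265 CPM with R1881, with a median of 248 CPM. The R1881 + enzalutamide libraries held 272, 242, 265, 272 and 274 CPM, of which replicates 2 and 3 lay within the R1881 range. AZIN1 shares 159 exonic bases with another protein-coding annotation on its strand that has no row in the table. The fitted log2 difference came to 0.10 (SE 0.040, limma adjusted p = 0.0325). This call was not stable. Leaving out R1881 replicate 1 gave an adjusted p of 0.0528, and leaving out R1881 + enzalutamide replicate 1, 3, 4 or 5 gave 0.0803, 0.0573, 0.0804 and 0.0903, while the fold change stayed between 0.08 and 0.13. Against the R1881 libraries 51 to 55 alone it was 0.07, with an adjusted p of 0.146 from limma. With each library scaled to the same total it was 0.20, with an adjusted p of 9.54e-05 from limma. The means of the 3 regulators with enzalutamide were thus between 0.948 and 1.13 times those with R1881.

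To compare levels between genes, CPM were divided by the length of the canonical transcript in kb. With R1881 the order of medians was ODC1 (623 CPM per kb), AMD1 (531), OAZ1 (360.0), SMS (359.9) and SAT1 (346), then SRM (68.5), OAZ2 (61.2) and AZIN1 (59.2), and last SMOX (2.18) and PAOX (1.82). Within each of these 3 tiers, neighbours in the order overlapped in range, and between the tiers they did not. With R1881 + enzalutamide OAZ1 came first (360.4 CPM per kb), and its range overlapped with that of AMD1 (339). ODC1 followed at 156 CPM per kb, then SAT1 at 94.97, SMS at 85.7, OAZ2 at 67.3, AZIN1 at 64.8 and SRM at 38.5, each with a range apart from its neighbours, and last SMOX at 1.68 and PAOX at 1.37, whose ranges overlapped. By this scaling ODC1 therefore moved from above the level of OAZ1 to below it. In CPM without division by length, ODC1 was above OAZ1 with R1881. With enzalutamide their ranges then overlapped, at 364 to 409 CPM and 347 to 474 CPM. The length-scaled levels rest on the canonical transcript and on an annotation that may not be the one used for counting. For OAZ1 this transcript has 1148 bases, against 3436 in all annotated exons, and for ODC1 2476 against 3307. The order of genes was not examined with other lengths.

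**Figure D3:**
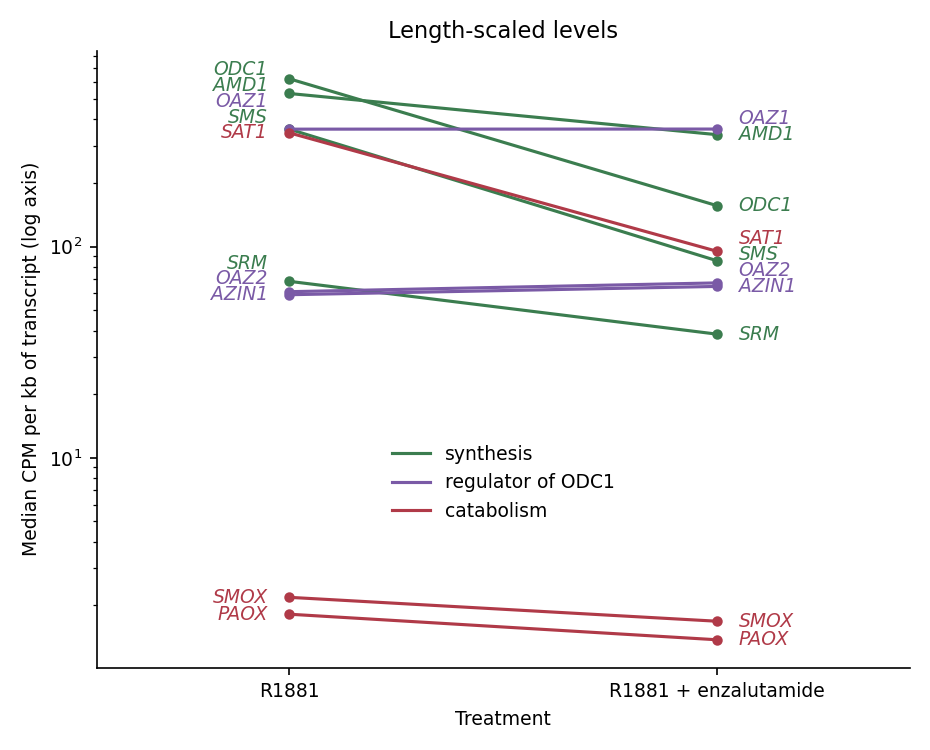
Median level of each gene in CPM per kb of its canonical transcript (vertical log axis) with R1881 and with R1881 + enzalutamide, joined by lines and coloured by role. ODC1 starts at 623 and ends at 156 CPM per kb, below OAZ1, whose line is flat at 360.0 and 360.4.

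Ratios between genes within a library do not depend on the scaling of libraries and are given as a description, since the genes were chosen as a set. The ratio of ODC1 to the sum of OAZ1 and OAZ2, in CPM per kb, was between 1.09 and 1.67 with R1881 (median 1.55). With R1881 + enzalutamide it was 0.440, 0.306, 0.353, 0.411 and 0.364. By canonical lengths, ODC1 mRNA thus exceeded that of OAZ1 and OAZ2 together in all 10 R1881 libraries. It was below that sum in all 5 R1881 + enzalutamide libraries. All annotated exons of ODC1, OAZ1 and OAZ2 span 3307, 3436 and 7671 bases, against 2476, 1148 and 1934 in the canonical transcripts. Ratios with other lengths were not examined, so the crossing is given for this scaling only. The ratio of SMS to SRM was between 3.49 and 6.25 with R1881 (median 5.34) and was 2.60, 1.48, 2.02, 2.29 and 2.26 with R1881 + enzalutamide, so that SMS mRNA still exceeded SRM mRNA in each library. Both ratios were lowest in R1881 replicate 6 and in R1881 + enzalutamide replicate 2. These had the highest GC trend of their treatments (rho of 0.74 and 0.72), and its part in the ratios was not tested. The ratio of ODC1 to SAT1, a synthetic and a catabolic enzyme, had a median of 1.89 and a range of 1.67 to 1.96 with R1881 and a median of 1.67 and a range of 1.52 to 1.71 with R1881 + enzalutamide, and these ranges overlapped.

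**Figure D4:**
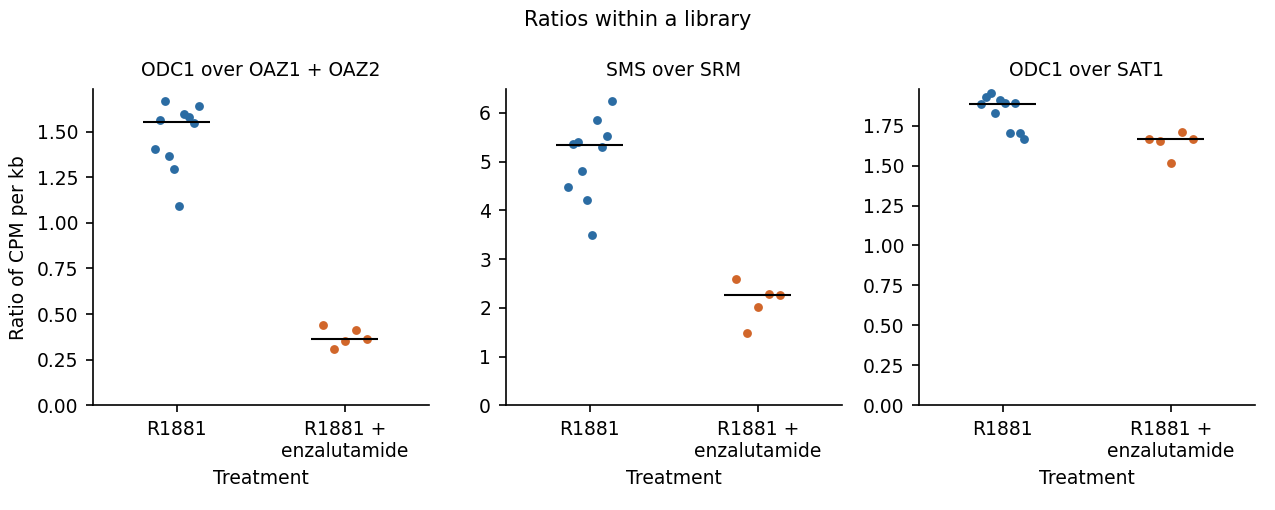
Ratios of CPM per kb within each library (vertical axes start at 0) for ODC1 over OAZ1 + OAZ2, SMS over SRM and ODC1 over SAT1, by treatment. Points are libraries and black lines are medians, which were 1.55 and 0.364, 5.34 and 2.26, and 1.89 and 1.67.

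Levels within a treatment also varied with the GC trend of the library, that is, with the correlation across genes between GC content and the deviation of the library from its group mean. The transcripts of SRM, PAOX and SMOX are rich in GC (63.6%, 63.0% and 60.7% of bases), that of OAZ1 has 54.0%, and those of AMD1 and AZIN1 have 37.9% and 38.0%. SRM and OAZ1 were highest in R1881 replicates 6 and 5, which had the highest trends with R1881, and in R1881 + enzalutamide replicate 2, which had the highest trend with enzalutamide. AMD1 was lowest in R1881 replicate 6 and in R1881 + enzalutamide replicate 2, as was AZIN1. Its 3 highest values, 2045, 2044 and 2014 CPM, were in R1881 replicates 7, 10 and 9, which had the most negative trends and carry the label numbers 53, 52 and 51. The part of this trend in the levels was not tested beyond the fits that follow. With the trend removed, the log2 fold changes were -2.02 for ODC1, -2.10 for SMS, -1.86 for SAT1, -0.70 for AMD1, 0.19 for OAZ2, 0.08 for AZIN1 and -0.05 for OAZ1. Without the 3 libraries of positive trend they were -1.98 for ODC1, -2.07 for SMS, -1.83 for SAT1, -0.68 for AMD1, 0.19 for OAZ2, 0.11 for AZIN1 and -0.04 for OAZ1. For the oxidases, the values without these libraries were -0.29 for PAOX and -0.40 for SMOX, and all 9 genes that had passed the test still did. Without all 6 libraries these 9 passed as well, with -2.00 for ODC1, -2.06 for SMS, -1.79 for SAT1, -0.62 for AMD1, 0.20 for OAZ2, 0.14 for AZIN1, -0.29 for PAOX and -0.50 for SMOX. OAZ1 then stood at -0.10, with an adjusted p of 0.0559 from limma.

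**Figure D5:**
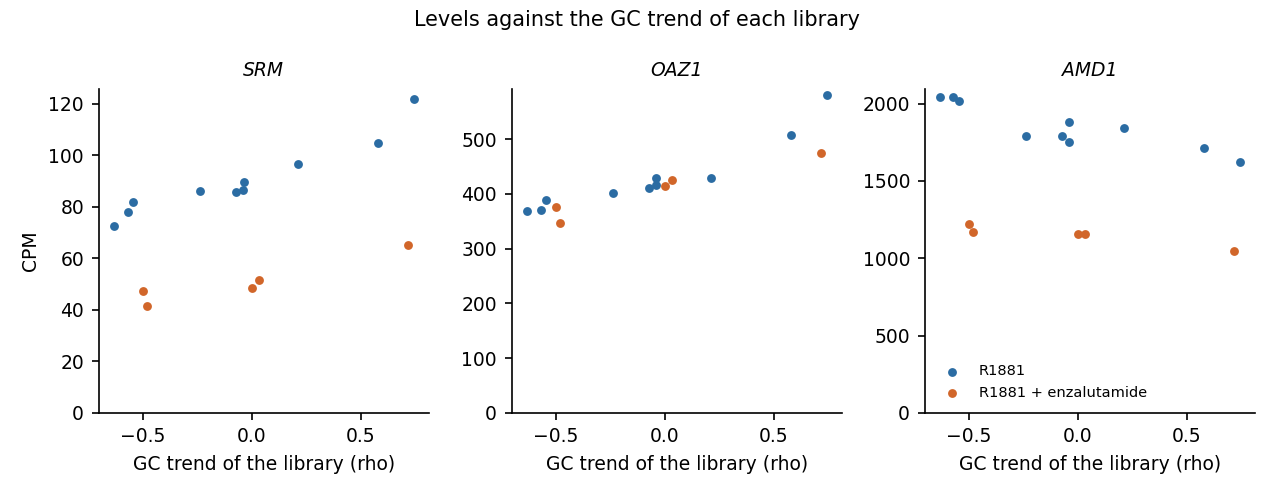
CPM of SRM, OAZ1 and AMD1 in each library (vertical axes start at 0) against the GC trend of that library (horizontal axis, Spearman's rho across genes). Points are libraries, coloured by treatment. SRM and OAZ1 are higher and AMD1 is lower in libraries with a high trend, of which the highest are 0.74 with R1881 and 0.72 with R1881 + enzalutamide.

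R1881 libraries carry the numbers 51 to 55 or 71 to 75 in their labels, and those with enzalutamide 81 to 85. No source used here says what these stand for. No series of numbers holds both treatments, so a difference between series and the treatment cannot be told apart. Between the R1881 series, 1 of the 10 genes differed by limma, where 3.29% of all genes tested did. It was AMD1, with means of 1965 CPM in libraries 51 to 55 and 1734 CPM in libraries 71 to 75, a log2 difference of -0.18 (limma adjusted p = 0.0289). Without R1881 replicate 5, 7, 8, 9 or 10 none of the 10 genes passed, so this call was not stable. The differences between the series for ODC1, SMS and SAT1 were 0.12, 0.01 and -0.01 on the log2 scale, small beside those with enzalutamide. Against libraries 51 to 55 alone the log2 fold changes with enzalutamide were -1.95 for ODC1, -2.08 for SMS and -1.85 for SAT1, and against libraries 71 to 75 alone they were -2.07, -2.09 and -1.84.

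The supply of the substrates was examined with lists of further genes. Of 7 tested genes for the supply of arginine and ornithine, 5 were lower and 2 were higher with enzalutamide (median log2 fold change -0.31), where 32.7% and 29.8% of all genes tested were. ASL, which releases arginine from argininosuccinate, had a log2 fold change of -0.55 (limma adjusted p = 0.00627) and OAT, the ornithine aminotransferase, of -0.39. ASS1, which makes argininosuccinate, had means of 87.0 ± 5.83 CPM (SD, n = 10) and, with enzalutamide, 120 ± 6.88 CPM (SD, n = 5), which is 0.46 higher on the log2 scale, and ARG2, the mitochondrial arginase that yields ornithine, increased by 0.40 on the log2 scale. For both genes all libraries with enzalutamide were above all those without it, as for 17.1% of all genes tested.

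Of 10 tested genes for the supply of S-adenosylmethionine and the salvage of methionine, 8 were lower, where 32.7% of all genes tested were, and none was higher, where 29.8% were (median log2 fold change -0.21). MTRR and MRI1 did not pass, with log2 fold changes of 0.11 and -0.07. MAT1A, also of this list, fell below the filter on low values and was not tested. Its medians were 0.24 CPM with R1881 and 0.72 CPM with enzalutamide, with no overlap. The largest decrease was that of APIP, an enzyme of the salvage pathway that recycles the methylthioadenosine left by SRM and SMS. Its R1881 mean of 38.0 ± 3.24 CPM (SD, n = 10) stood against 17.5 ± 0.896 CPM (SD, n = 5) with enzalutamide, and its log2 fold change was -1.10 (limma adjusted p = 8.50e-13). ENOPH1, of the following step, had a log2 fold change of -0.40 (limma adjusted p = 4.14e-09), with no overlap between the treatments.

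Of 6 tested genes linked to polyamine transport and given here, 1 was lower, 1 was higher and 4 did not pass (median log2 fold change -0.02), where 62.5% of all genes tested passed in either direction. SLC18B1, a vesicular polyamine transporter, increased from a median of 5.15 to 11.2 CPM, or by 1.13 on the log2 scale (limma adjusted p = 1.73e-07). SLC3A2, the heavy chain of several amino acid transporters, was lower with a log2 fold change of -0.18. Of the 4 genes for hypusine, the modification of EIF5A that is made from spermidine, EIF5A was lower with -0.35, EIF5A2 was higher with 0.37, and the enzymes DHPS and DOHH did not pass, with values of -0.07 and -0.43 (median of the list -0.21).

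Among 6 tested paralogs and other amine enzymes, 2 were lower and 3 were higher (median log2 fold change 0.21), beside 32.7% and 29.8% of all genes tested. AOC1, the diamine oxidase that degrades putrescine, increased from a median of 0.729 CPM with R1881 to 3.84 CPM with R1881 + enzalutamide (log2 fold change 1.65, limma adjusted p = 1.51e-08). HDAC10, a polyamine deacetylase, had a log2 fold change of 0.50 at a mean of 0.914 CPM with R1881. The antizyme paralog OAZ3 and ALDH9A1 were lower, with log2 fold changes of -0.44 and -0.12.

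The network of MYC, a factor known to act on ODC1 and SRM, was examined last. Of 8 tested genes 4 were lower, 2 were higher and 2 did not pass (median log2 fold change -0.14), beside 32.7% lower and 29.8% higher of all genes tested. The 6 that passed are a share near the 62.5% of all genes. MYC itself was higher with enzalutamide. It ranged from 94.6 to 127 CPM with R1881 and from 130.5 to 152 CPM with R1881 + enzalutamide, with no overlap, a log2 fold change of 0.36 (SE 0.062, limma adjusted p = 4.53e-05). MXI1, which competes with MYC for the partner MAX, increased from a median of 47.0 CPM to 84.4 CPM (log2 fold change 0.84, limma adjusted p = 6.46e-13). MXD3 and MYCL were lower, with log2 fold changes of -0.80 and -0.66. MYC mRNA was higher with enzalutamide while the mRNA of ODC1 and SRM was lower. Whether MYC had a part in the differences of ODC1 and SRM was not tested.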

How the data were processed

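Libraries had been made with a stranded mRNA kit and read from a single end. Per the methods and labels, the authors aligned the reads to GRCh38 using STAR, counted them by gene using featureCounts (Subread) and deposited a scaled signal for each gene and library, which they call CPM. Its columns sum to 985580 to 1078567, so the scale is not the plain total. For the versions, annotation, strand setting, gene filter and scaling, the sources used here give nothing. In each column 100% of values equalled a whole number of reads (tolerance 0.01 reads), and these recovered reads served as counts. No column was without a sample. None of 55 pairs of libraries within a treatment looked like a library deposited more than once (smallest chi-square per degree of freedom 1.64). P-values measure the spread between these libraries.

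The main test was limma 3.58.1 in R 4.3.3 with its trend option on log2(CPM + 0.5), over genes with a mean of at least 0.5 CPM. Treatment was the sole term, and p-values were adjusted by Benjamini-Hochberg over all these genes (threshold 0.05). This scale understates the change of genes with few reads. The code was tested on simulated data. Alternatives included edgeR 4.0.16 and DESeq2 1.42.0 on the recovered reads, other scalings, pseudocounts, filters and subsets of libraries. Positions, lengths and GC content (for 80.8% of genes in the table) came from GENCODE v44, and sequences from RefSeq (GRCh38.p14). The genes and lists were chosen with earlier results of these data known. Named were all 10 genes of the set, the androgen targets and, of each other list, up to 2 lower and 2 higher genes past the threshold with the largest differences, or any gene of a list with at most 5 measured. MTRR, MRI1, MAT1A and the genes between SMS and SAT1 were named after their values were seen. Some genes of these lists are not reported here, and the counts and medians of their lists leave them out.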

Additional observations from a re-analysis of the deposited data

Results flagged for a closer look

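In 20 groups of libraries (10 genes, 2 treatments) the lowest and the highest library were compared with the rest of the group, where chance gives about 1 library far from the others. There was 1. AZIN1 was at 242 CPM in R1881 + enzalutamide replicate 2, and the nearest library of that treatment held 265 CPM, a gap of 0.714 of the range of the group. This is the library whose deviations followed the GC content of genes, with a rho of 0.72, and the part of this trend in the low value was not tested. Without this library the log2 fold change of AZIN1 was 0.13, with an adjusted p of 0.00579 from limma.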

How the results depend on the processing

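Over 29 alternatives, ODC1, AMD1, SRM, SMS, SAT1, OAZ2 and PAOX kept their direction and stayed past the threshold, and 6 or 7 genes of the set were lower. OAZ1 turned sign with each library scaled to the same total (0.021, limma adjusted p = 0.856) and against R1881 libraries 51 to 55 alone (0.042, limma adjusted p = 0.598). Against libraries 51 to 55 alone 1 gene was higher, since AZIN1 no longer passed, and SMOX was also lost. Scaling to the same total moved the median of all genes to 0.07 on the log2 scale and the split of all genes to 4288 lower and 6629 higher, from 5577 and 5083. OAZ2 and AZIN1 were then 0.27 and 0.20. On the recovered reads edgeR called 5587 genes lower and 5100 higher, and DESeq2 called 5536 and 5002. With single libraries left out, 1 to 2 genes of the set were higher, the lower value being without R1881 replicate 1 or R1881 + enzalutamide replicates 1, 3, 4 or 5. Between the R1881 number series, 2 genes of the set differed with the same-total scaling, with TMM and with DESeq2, and 1003 of all genes differed with DESeq2, against 1 and 553. Leaving out single R1881 libraries gave 0 to 2 and 54 to 970, with 0 of the set without replicates 5, 7, 8, 9 or 10 and 2 without replicate 6. The causes of these changes were not tested.

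Libraries with the same replicate number did not deviate together (correlations over 17046 genes from -0.068 to 0.074), so the numbers do not pair them. With the number as a replicate block 7 genes of the set were lower and 2 higher, and 5252 and 4783 of all genes. PAOX and SMOX rest on 53 to 119 reads per library, which limits their precision. The design has a single cell line and no cells without R1881.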
